A study of Mus musculus with 20 samples.

Results

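The genes of cholesterol synthesis and of its control by SREBP2 were followed in the livers of *Crem* knock-out (KO) and wild-type (WT) mice at light onset and at light end. The members were 31 named genes, and they were found by their symbol among probe sets assigned to exactly 1 gene. Of the 31, 27 had a value, each on 1 probe set, out of 25689 probe sets tested and 19661 genes with a single-gene probe set. No probe set named *Acat2* or *Soat2*, *Mbtps2* was named only on a probe set shared with another gene, and the 2 probe sets of *Idi1* held no value on any array, so these 4 genes were not measured. *Fdft1* and *Tmem97* each had a further probe set without values. *Rdh11* and *Srebf2* were each also named on a probe set shared with another gene, which was not used.

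Whole liver RNA of 20 mice was hybridized to GeneChip Mouse Gene 1.0 ST arrays, 1 mouse to an array and 5 mice to a group. The groups were KO at 12 h, WT at 12 h, KO at 0 h and WT at 0 h. KO mice were homozygous for a disrupted *Crem* gene, which encodes a transcription factor of the cAMP pathway, and WT mice had the intact gene. Both genotypes were on a mixed background (129Pas x C57Bl/J), 8 weeks old and not treated, lived in 12:12 h light and dark with food always present, and were killed at 7 am when the light went on (0 h) or at 7 pm when it went off (12 h). The labels give no sex, no litter and no feeding record, and they do not say which part of *Crem* the allele removes. Each value is the log2 of an RMA-normalized brightness, so a difference of 1 is a doubling, and levels of different probe sets were not compared with each other.

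Cholesterol is built from acetyl-CoA. The mevalonate steps make HMG-CoA, reduce it to mevalonate and turn that into farnesyl pyrophosphate, and the later steps join farnesyl units to squalene, close the rings to lanosterol and trim lanosterol to cholesterol. SREBP2 is held in the endoplasmic reticulum with SCAP while sterols are plentiful, because INSIG proteins retain SCAP there. When sterols fall, SCAP carries SREBP2 to the Golgi, where the site-1 and site-2 proteases cut it, and the freed part enters the nucleus and switches on genes of synthesis and uptake, usually together with NF-Y. The liver makes much of the cholesterol of the body, and its synthesis is known to follow the daily rhythm of feeding.

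*Crem* itself was checked first. Its log2 values were 7.39, 7.48, 7.64, 7.67 and 7.83 in KO livers and 7.90, 7.93, 8.01, 8.01 and 8.02 in WT livers at 12 h, against 7.43, 7.69, 7.87, 8.07 and 8.17 in KO livers and 8.11, 8.24, 8.31, 8.42 and 8.54 in WT livers at 0 h. All 5 KO livers lay below every WT liver at 12 h, whereas at 0 h the liver labelled KO mouse 1 (8.17) lay above WT mouse 80 (8.11). The difference between KO and WT was -0.37 at 12 h (adjusted p = 0.19), -0.48 at 0 h (adjusted p = 0.987) and -0.42 over both times (adjusted p = 0.135), and none passed the test used throughout (limma over all 25689 probe sets, Benjamini-Hochberg adjusted p under 0.05, here called). Without the liver labelled KO mouse 1 the difference over both times was called (-0.46, adjusted p = 0.0494). The median log2 value of an array was 7.13 to 7.17 in KO and 7.07 to 7.15 in WT livers at 12 h, against 7.19 to 7.23 in KO and 7.18 to 7.24 in WT livers at 0 h. The 8 hepatocyte markers averaged 13.69 to 13.83 in every liver. All 10 livers at 12 h carry batch label 5 and all 10 at 0 h carry batch labels 1 to 4, so the time of day and the batch cannot be told apart.

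Promoter sequences are shown for 5 members that the results turn on, 3 that were lower at 12 h (*Hmgcs1*, *Mvd*, *Insig2*) and 2 that were higher (*Mbtps1*, *Mylip*). Each window runs from 250 bases before a RefSeq transcript start to 50 bases after it, on the strand of the gene, from the GRCm38.p6 annotation. Capitals mark every match, on either strand, to the sterol regulatory element TCACNCCAC, the NF-Y box CCAAT (on the other strand it reads ATTGG), the full cAMP response element TGACGTCA or its short form TGACG (on the other strand CGTCA), which is contained in the full one. *Insig2* has 3 windows, and those that hold a match are shown.
Hmgcs1, chr13:119690101-119690400, plus strand: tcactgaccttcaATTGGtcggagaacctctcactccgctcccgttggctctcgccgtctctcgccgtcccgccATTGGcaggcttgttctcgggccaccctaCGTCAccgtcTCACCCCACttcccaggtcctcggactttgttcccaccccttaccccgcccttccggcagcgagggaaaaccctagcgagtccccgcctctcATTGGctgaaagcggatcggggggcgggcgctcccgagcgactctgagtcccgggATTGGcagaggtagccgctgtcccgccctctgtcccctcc
Mvd, chr8:122443373-122443672, minus strand: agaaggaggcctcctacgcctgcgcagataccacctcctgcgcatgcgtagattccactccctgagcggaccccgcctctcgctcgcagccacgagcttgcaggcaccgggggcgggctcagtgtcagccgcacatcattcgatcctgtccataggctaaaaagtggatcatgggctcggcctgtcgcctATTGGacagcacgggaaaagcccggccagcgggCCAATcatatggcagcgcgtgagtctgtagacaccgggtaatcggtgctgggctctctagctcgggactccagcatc
Insig2, chr1:121327629-121327928, minus strand: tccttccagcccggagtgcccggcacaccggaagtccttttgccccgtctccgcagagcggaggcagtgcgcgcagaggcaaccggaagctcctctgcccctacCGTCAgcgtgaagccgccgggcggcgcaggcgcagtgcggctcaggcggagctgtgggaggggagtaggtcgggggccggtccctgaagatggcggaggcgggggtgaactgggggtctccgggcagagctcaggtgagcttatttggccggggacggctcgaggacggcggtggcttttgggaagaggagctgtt
Insig2, chr1:121332540-121332839, minus strand: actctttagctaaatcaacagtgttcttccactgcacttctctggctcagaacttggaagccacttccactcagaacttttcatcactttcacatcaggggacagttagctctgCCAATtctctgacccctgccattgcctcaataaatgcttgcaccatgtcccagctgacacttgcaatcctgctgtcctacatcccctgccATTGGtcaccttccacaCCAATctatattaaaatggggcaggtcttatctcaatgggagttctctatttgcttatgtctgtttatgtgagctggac
Mbtps1, chr8:119558712-119559011, minus strand: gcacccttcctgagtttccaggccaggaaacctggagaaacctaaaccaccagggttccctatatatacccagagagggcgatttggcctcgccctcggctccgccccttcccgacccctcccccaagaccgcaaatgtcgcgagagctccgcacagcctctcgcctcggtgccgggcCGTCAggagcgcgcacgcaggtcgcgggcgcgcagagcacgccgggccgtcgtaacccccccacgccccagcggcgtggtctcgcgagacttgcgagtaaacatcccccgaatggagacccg
Mylip, chr13:45389492-45389791, plus strand: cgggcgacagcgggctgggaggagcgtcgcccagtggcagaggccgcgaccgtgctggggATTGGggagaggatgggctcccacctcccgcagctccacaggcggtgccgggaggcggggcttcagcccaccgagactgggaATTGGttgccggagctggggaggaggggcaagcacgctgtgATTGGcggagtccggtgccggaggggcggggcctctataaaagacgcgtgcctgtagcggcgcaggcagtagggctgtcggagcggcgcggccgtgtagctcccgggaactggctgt

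Windows were read for 26 of the 31 member genes, 33 windows in all; none was read for *Fdps*, *Fdft1*, *Sqle*, *Stard4* or *Soat2*. The sterol regulatory element pattern was present in 1 member gene, *Hmgcs1*, or 3.85% of them, against 1.44% of all 27025 genes with a window. The NF-Y box was present in 22 member genes (84.6%), against 41.1% of all genes. *Mvk* held 5 boxes in 1 window, and *Hmgcs1* and *Nsdhl* held 4 each. The short form was present in 12 member genes (46.2%), against 23.0% of all genes, and the full element in 0, against 2.03% of all genes. By windows instead of genes, the NF-Y box stood in 22 of 33 member windows (66.7%) and 37.4% of all windows. These matches describe letters only, with no test.

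The 2 ends of the light phase were compared first. At 12 h, 13 of the 27 measured members were called lower and 5 higher than at 0 h over both genotypes, where 21.2% of all probe sets were called lower and 18.1% higher. Among the 17 pathway enzymes, 10 were called lower and 1 higher, with a median log2 change of -0.26, against -0.03 over all probe sets tested. The 8 regulators and uptake genes went both ways, with 4 called higher (*Scap*, *Mbtps1*, *Mylip*, *Tmem97*) and 2 lower (*Insig1*, *Insig2*) and a median of 0.15. SCAP and the site-1 protease help to free SREBP2 and INSIG proteins retain it, so this median measures no direction of regulation. No test was made of either group. After each array was centred on its median, these counts were 10 members lower and 7 higher, beside 5457 lower and 4651 higher calls over all probe sets as deposited and 3079 lower and 6707 higher after centring. The mean of batch 5 lay outside the range of the 4 batch means at 0 h for 25 of 27 members, and for 61.3% of all probe sets. The batch means at 0 h spanned 0.06 to 0.58 for a member, with a median of 0.23.

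**Figure D1:**
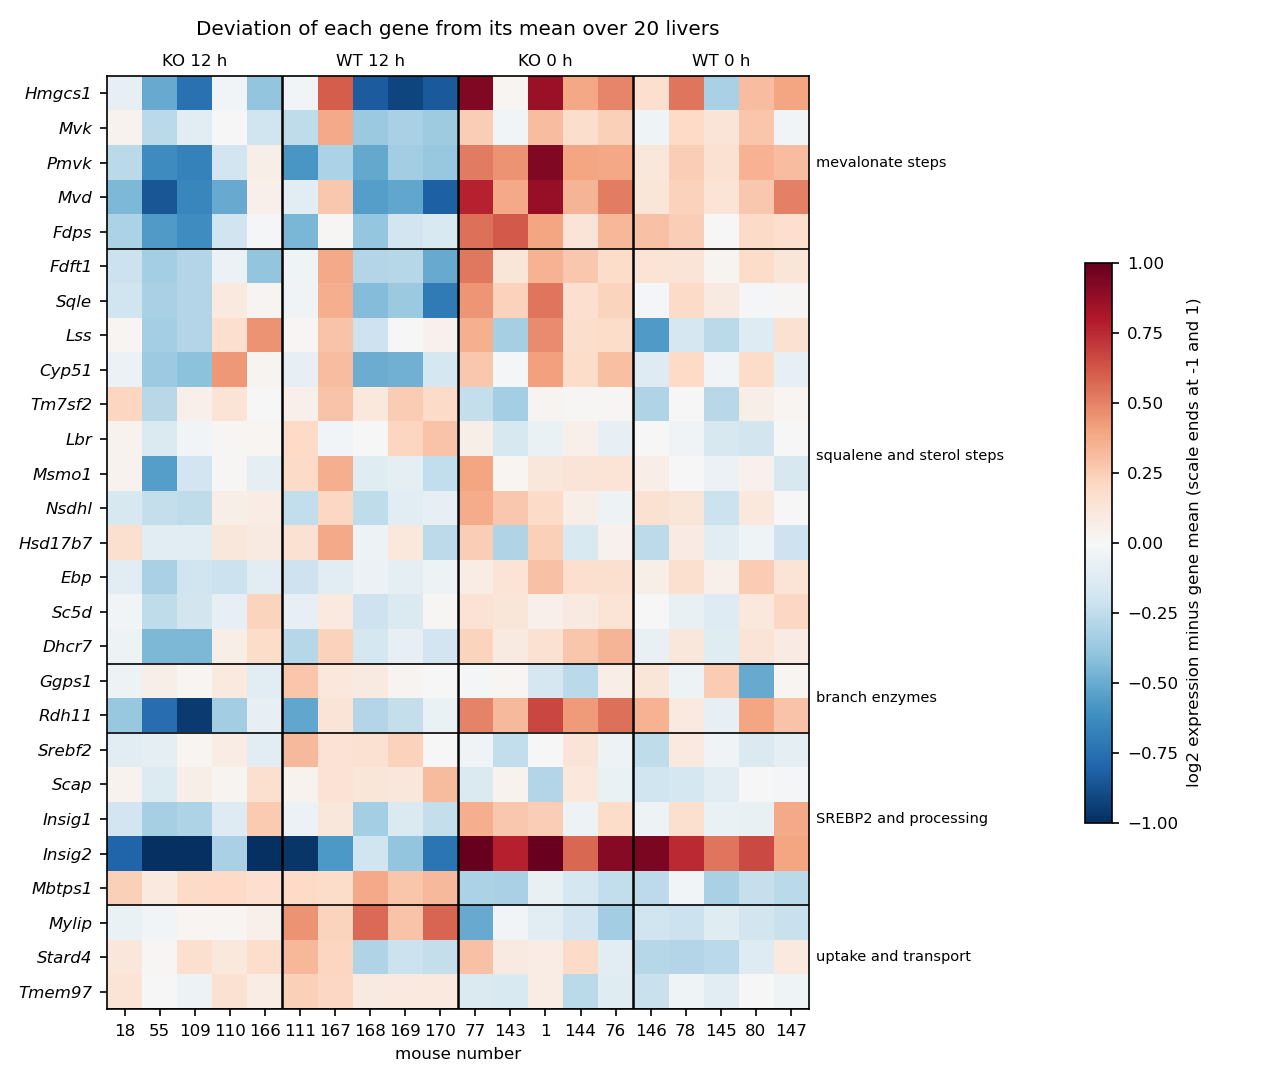
Deviation of each of the 27 measured genes (rows, by role) from its own mean over 20 livers, on the log2 scale, in each mouse (columns, by group). Blue is below and red above the mean of the gene. *Insig2* is below its mean in all 10 livers at 12 h and above it in all 10 at 0 h, and most mevalonate enzymes are blue at 12 h, except in WT mouse 167.

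The mevalonate steps held the larger changes among the enzymes. All 5 enzymes measured were called lower at 12 h over both genotypes, with a median of -0.75, and the range ran from -0.83 for *Mvd* to -0.29 for *Mvk*. *Mvd* makes isopentenyl pyrophosphate from mevalonate pyrophosphate. Its values were 8.79, 8.995, 9.14, 9.20 and 9.70 in KO livers and 8.83, 9.09, 9.12, 9.53 and 9.92 in WT livers at 12 h, against 9.99, 10.03, 10.16, 10.41 and 10.52 in KO livers and 9.76, 9.79, 9.87, 9.91 and 10.15 in WT livers at 0 h. Every KO liver at 12 h lay below every KO liver at 0 h, whereas among WT livers mouse 167 at 12 h (9.92) was above 4 of the 5 livers at 0 h. The change of *Mvd* was -1.06 (95% interval -1.42 to -0.70, adjusted p = 1.23e-04) in KO and -0.60 (95% interval -0.96 to -0.24, adjusted p = 0.0132) in WT livers, to 0.481 of its level at 0 h in KO and 0.661 in WT. Without WT mice 80 and 170 together, a setting chosen after the data had been seen, the WT change was not called (-0.48, adjusted p = 0.078).

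*Pmvk*, the phosphomevalonate kinase one step before *Mvd*, had values of 9.43, 9.47, 9.84, 9.91 and 10.16 in KO livers and 9.52, 9.59, 9.73, 9.76 and 9.79 in WT livers at 12 h, against 10.49, 10.50, 10.55, 10.62 and 11.03 in KO livers and 10.22, 10.26, 10.35, 10.42 and 10.45 in WT livers at 0 h. The 10 livers at 12 h did not overlap the 10 at 0 h. Over both genotypes the change was -0.77 (95% interval -0.95 to -0.59, adjusted p = 3.56e-07), a level at 12 h of 0.587 of that at 0 h. Among the 27 members, 4 showed no overlap of this kind, *Pmvk*, *Ebp* and *Insig2* lower and *Mbtps1* higher at 12 h, against 7.57% of all probe sets. Within a genotype, the times did not overlap for 9 members that were lower and 1 that was higher in KO livers (16.4% of all probe sets), and for 3 lower and 4 higher in WT livers (17.5%).

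*Hmgcs1*, the cytosolic HMG-CoA synthase whose promoter is printed above with the sterol element, had values of 11.19, 11.43, 11.54, 11.86 and 11.91 in KO livers and 11.02, 11.10, 11.11, 11.91 and 12.55 in WT livers at 12 h, against 11.96, 12.325, 12.43, 12.80 and 12.86 in KO livers and 11.61, 12.11, 12.24, 12.329 and 12.47 in WT livers at 0 h. KO livers at 12 h lay below all KO livers at 0 h, whereas WT mouse 167 at 12 h (12.55) was above every WT liver at 0 h. The change of *Hmgcs1* was called in KO livers at -0.89 (95% interval -1.40 to -0.38, adjusted p = 0.0125) and not in WT livers at -0.62 (95% interval -1.13 to -0.11, adjusted p = 0.0651), and it was called in WT livers without mouse 167 (-0.87, adjusted p = 0.00414), without mouse 145 (-0.75, adjusted p = 0.0314) and with only the probe sets brighter than the median (here called bright; adjusted p = 0.0487). The difference between the 2 changes was -0.27 (-0.99 to 0.45) and was not called. *Fdps*, which makes farnesyl pyrophosphate, changed at 12 h by -0.75 (adjusted p = 5.44e-05) in KO and -0.41 (adjusted p = 0.0102) in WT livers. *Mvk*, the mevalonate kinase, was at -0.29 in KO and -0.29 in WT livers, neither of which was called alone (adjusted p = 0.0794 in KO and 0.0666 in WT), and was called over both genotypes at -0.29 (adjusted p = 0.00732). Without WT mouse 167 both were called (adjusted p = 0.0124 in KO and 0.000924 in WT). Both were also called with bright probe sets alone (adjusted p = 0.0481 in KO and 0.0448 in WT). The same held after quantile normalization (-0.35, adjusted p = 0.0414 in KO and -0.38, adjusted p = 0.0252 in WT). With the fit restricted to the livers compared, the KO change of *Mvk* was called (adjusted p = 0.0245).

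The squalene and sterol steps were mixed. Of 12 enzymes, 5 were called lower and 1 higher at 12 h over both genotypes, and their median was -0.17. *Fdft1*, the squalene synthase that commits farnesyl units to sterols, had values of 11.58, 11.64, 11.69, 11.76 and 11.92 in KO livers and 11.48, 11.69, 11.70, 11.94 and 12.363 in WT livers at 12 h, against 12.10, 12.17, 12.25, 12.329 and 12.51 in KO livers and 12.01, 12.10, 12.11, 12.12 and 12.17 in WT livers at 0 h. KO livers at 12 h lay below all KO livers at 0 h, and WT mouse 167 (12.363) was the highest of all 10 WT livers. Its change was -0.55 (95% interval -0.80 to -0.30, adjusted p = 0.0018) in KO and -0.27 (95% interval -0.52 to -0.02, adjusted p = 0.0952) in WT livers, where it was called without mouse 167 (-0.40, adjusted p = 0.00356). *Sqle*, the squalene epoxidase and a rate-limiting step, had values of 10.64, 10.67, 10.76, 10.99 and 11.06 in KO livers and 10.25, 10.53, 10.59, 10.93 and 11.33 in WT livers at 12 h, against 11.13, 11.19, 11.19, 11.40 and 11.49 in KO livers and 10.94, 10.95, 10.97, 11.05 and 11.15 in WT livers at 0 h. The WT livers at 12 h spanned 10.25 to 11.33 and enclosed all WT values of 0 h, and the change of *Sqle* was called in KO livers at -0.46 (adjusted p = 0.0245), not in WT livers at -0.29 (adjusted p = 0.134). Without WT mouse 167 the WT change was called (-0.44, adjusted p = 0.00836), and without KO mouse 1, 55, 77 or 109 the KO change was not (-0.43 to -0.41, adjusted p up to 0.066).

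*Ebp*, the sterol isomerase, differed by little but with little spread. Its values were 11.43, 11.53, 11.55, 11.63 and 11.64 in KO livers and 11.54, 11.64, 11.65, 11.69 and 11.70 in WT livers at 12 h, against 11.82, 11.89, 11.90, 11.91 and 12.04 in KO livers and 11.79, 11.81, 11.88, 11.91 and 12.00 in WT livers at 0 h. The highest of all livers at 12 h was 11.70 and the lowest at 0 h 11.79. The change was -0.36 (adjusted p = 3.09e-04) in KO and -0.24 (adjusted p = 0.00854) in WT livers, and centring of each array on its median ended the WT call (-0.15, adjusted p = 0.085). *Dhcr7*, the last reductase of one route, was called lower in KO livers at -0.36 (adjusted p = 0.0297) and was at -0.13 (adjusted p = 0.434) in WT livers. The KO call of *Dhcr7* was lost without any 1 of KO mice 55, 76, 77, 109 and 144 (-0.36 to -0.28, adjusted p up to 0.0937) and after centring (-0.30, adjusted p = 0.0634), and its call over both genotypes (-0.24, adjusted p = 0.0212) was lost after centring (-0.17, adjusted p = 0.0972) and without WT mice 80 and 170 (-0.22, adjusted p = 0.0612). *Nsdhl*, a decarboxylase of the C4 demethylation, was called only over both genotypes, at -0.20 (adjusted p = 0.0302), and lost the call without any 1 of KO mice 55, 77, 109 and 143 and WT mice 78, 111, 146 and 168 (-0.19 to -0.18, adjusted p up to 0.0603) and after centring (-0.13, adjusted p = 0.171). Quantile normalization (-0.18, adjusted p = 0.0544) and leaving out WT mice 80 and 170 together (-0.20, adjusted p = 0.0633) also ended that call.

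*Tm7sf2* and *Lbr*, which both encode sterol C14 reductases, stood on the other side of 0. *Tm7sf2* was at 0.13 (adjusted p = 0.408) in KO livers, and was called higher at 12 h in WT livers at 0.27 (adjusted p = 0.045) and over both genotypes at 0.20 (adjusted p = 0.0285). The call over both genotypes was lost without any 1 of KO mice 18, 77, 110 and 143 and WT mice 145 and 146 (0.17 to 0.19, adjusted p up to 0.0589), and the WT call without any 1 of WT mice 145, 146, 167, 168, 169 and 170 and KO mice 109 and 166 (adjusted p up to 0.12), without WT mice 80 and 170 together (adjusted p = 0.0612) and with the batch as a random block (adjusted p = 0.0548). *Lbr*, which is also a receptor of the nuclear lamina, was at 0.02 (adjusted p = 0.888) in KO livers and was called higher in WT livers at 0.21 (adjusted p = 0.036). The WT call of *Lbr* was lost without any 1 of WT mice 80, 111, 145, 169 and 170 (0.17 to 0.19, adjusted p up to 0.103) and after quantile normalization (0.12, adjusted p = 0.22). It was also lost without WT mice 80 and 170 together (0.15, adjusted p = 0.211), with the fit restricted to the livers compared (adjusted p = 0.0869) and with array weights (0.20, adjusted p = 0.0528). Over both genotypes *Lbr* was at 0.11 (adjusted p = 0.0839), and was called after centring (0.19, adjusted p = 0.00951), with bright probe sets alone (adjusted p = 0.0497) and without WT mouse 167 (0.14, adjusted p = 0.0422).

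Of the remaining sterol enzymes none was called in any comparison of times. Over both genotypes they were at 0.03 (adjusted p = 0.874) for *Lss*, the lanosterol synthase, -0.26 (adjusted p = 0.0598) for *Cyp51*, the C14 demethylase, -0.14 (adjusted p = 0.183) for *Msmo1*, the C4 methyl oxidase, 0.09 (adjusted p = 0.391) for *Hsd17b7*, the C3 ketoreductase, and -0.13 (adjusted p = 0.0887) for *Sc5d*, the C5 desaturase. *Cyp51* was called without KO mouse 110 or 143 or WT mouse 167, with values of -0.32 to -0.29, and with bright probe sets alone (adjusted p = 0.0448). *Sc5d* was called without KO mouse 166 (-0.17, adjusted p = 0.021).

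**Figure D2:**
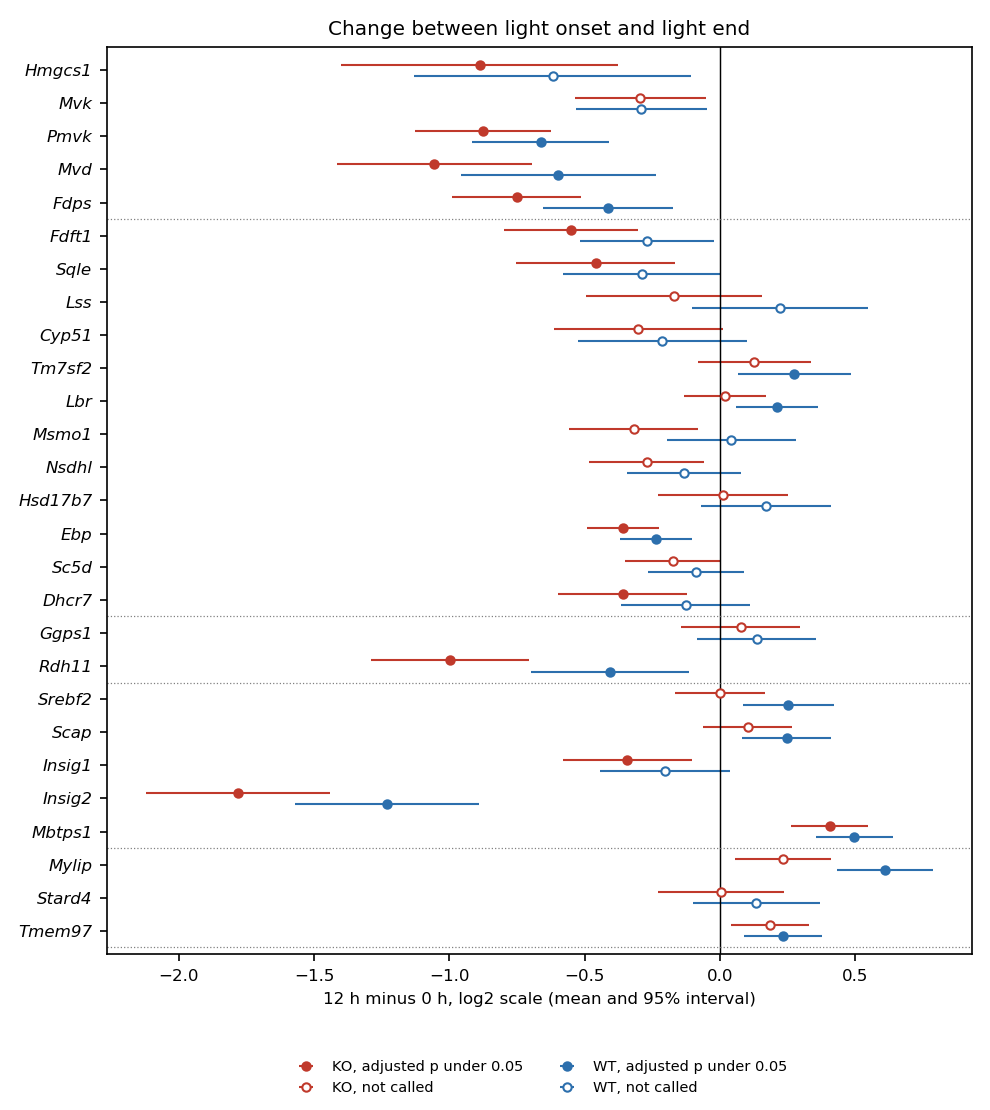
Change of each measured gene at 12 h relative to 0 h (horizontal axis, log2 scale) in KO (red, upper of each pair) and WT livers (blue, lower), as the limma estimate with its 95% interval, for 5 mice a group. Filled points have an adjusted p under 0.05. *Insig2* lies farthest to the left in both genotypes, at -1.78 in KO and -1.23 in WT livers, and *Mylip* farthest to the right in WT livers at 0.61.

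Within each genotype, 11 of 27 members were called lower and 1 higher in KO livers, against 9.69% and 10.6% of all probe sets, and 6 lower and 7 higher in WT livers, against 14.3% and 13.5%. Of the 17 enzymes, 8 were called lower and 0 higher in KO livers, with a median of -0.32, and 4 lower and 2 higher in WT livers, with a median of -0.21. At an unadjusted p, the difference of the changes between the genotypes was under 0.05 for 5 of 27 members, against 6.84% of all probe sets, and for 3 to 7 under the other settings, and none was called by limma after adjustment under any setting tried. The count of lower enzymes in WT livers turned on mouse 167. Without WT mouse 167 at 12 h, 8 enzymes and 10 members were called lower in WT livers. The higher count in WT livers was 4 of 27 without WT mouse 146 or without WT mouse 170, 4 without WT mice 80 and 170 together, and 3 after quantile normalization. In KO livers the 1 member called higher, *Mbtps1*, was joined by *Mylip* and *Tmem97* without the liver labelled KO mouse 1, for 3 in all.

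WT mouse 167 was the highest of the 5 WT livers at 12 h in 15 of 17 enzymes. The mean deviation of the 17 enzymes from their gene means was 0.22 in this liver, against -0.29 to -0.11 in the other 4. Among KO livers at 12 h, mouse 55 was the lowest in 11 of 17 enzymes and had the lowest mean deviation, at -0.39, and the highest, mouse 166, was at -0.00169. At 0 h the means ran from 0.08 to 0.36 in KO and from -0.07 to 0.13 in WT livers. All KO livers at 12 h thus lay below all KO livers at 0 h in this mean, whereas the WT groups overlapped through mouse 167.

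**Figure D3:**
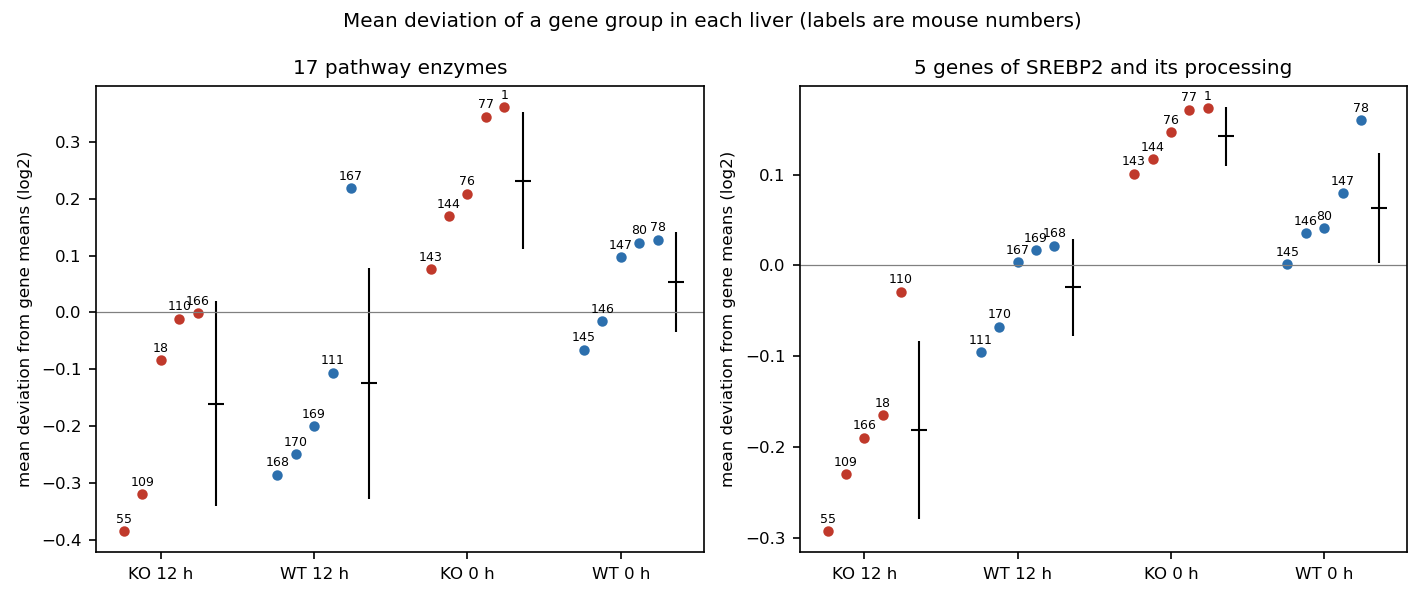
Mean deviation of the 17 pathway enzymes (left) and of 5 genes of SREBP2 and its processing (right) from their gene means, on the log2 scale, in each liver. Points are mice, sorted by value within a group and labelled by number, red for KO and blue for WT, and bars show the group mean ± SD (n = 5). For the enzymes WT mouse 167 stands at 0.22, above the other 4 WT livers at 12 h.

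The enzymes varied together from mouse to mouse. After the group means were taken out, the median Pearson correlation over 136 pairs of the 17 enzymes was 0.47 across the 20 livers, and 129 pairs were positive, against a median of 0.002 over all pairs of single-gene probe sets. This is a description of genes read from the same arrays, in livers that share batches, and no test was made. Closest to the mean of the other enzymes were *Cyp51* (r = 0.83), *Mvd* (0.83), *Hmgcs1* (0.82) and *Sqle* (0.80). With WT mouse 167 left out of the correlation, these were 0.77, 0.76, 0.74 and 0.70. Here and below, the group mean taken out still included that mouse, so its influence was not fully removed. *Lbr* (0.02) and *Ebp* (0.30) followed the mean of the other enzymes least. With WT mouse 167 left out in this way, they were at 0.34 and 0.37. Outside the enzymes, *Rdh11* (0.70), *Insig1* (0.69), *Tmem97* (0.66) and *Stard4* (0.53) went with the enzyme mean, *Insig2* (0.08), *Mbtps1* (0.07) and *Scap* (-0.05) lay near 0, and *Mylip* (-0.46) ran the other way. With WT mouse 167 left out of the correlation but not of its group mean, *Mbtps1* was at 0.27 and *Mylip* at -0.32. The 5 processing genes did not go together, with a median of -0.06 over 10 pairs.

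Of the 2 enzymes outside the pathway steps, *Rdh11* changed and *Ggps1* was not called. *Rdh11*, a retinol dehydrogenase of the endoplasmic reticulum, had values of 9.76, 9.95, 10.34, 10.36 and 10.63 in KO livers and 10.20, 10.42, 10.47, 10.65 and 10.84 in WT livers at 12 h, against 11.04, 11.14, 11.21, 11.26 and 11.38 in KO livers and 10.63, 10.81, 11.003, 11.06 and 11.11 in WT livers at 0 h. KO livers at 12 h lay below every liver at 0 h, and WT livers at 12 h overlapped those at 0 h through mice 167 (10.84) and 170 (10.65). The change was -0.998 (95% interval -1.29 to -0.71, adjusted p = 2.14e-05) in KO and -0.41 (95% interval -0.70 to -0.12, adjusted p = 0.0345) in WT livers, and the WT call was lost after centring (-0.32, adjusted p = 0.0906) and without any 1 of WT mice 80, 111, 146, 147, 168 and 169 (-0.40 to -0.33, adjusted p up to 0.101). The WT call was also lost without WT mice 80 and 170 together (-0.39, adjusted p = 0.0909). *Ggps1*, which makes geranylgeranyl pyrophosphate for protein prenylation, had values of 8.07, 8.12, 8.19, 8.23 and 8.27 in KO livers and 8.17, 8.20, 8.26, 8.28 and 8.45 in WT livers at 12 h, against 7.90, 8.00, 8.16, 8.19 and 8.23 in KO livers and 7.67, 8.12, 8.19, 8.29 and 8.42 in WT livers at 0 h. All 4 groups overlapped, and the change of *Ggps1* was 0.11 (95% interval -0.05 to 0.26, adjusted p = 0.269) over both genotypes.

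Among SREBP2 and its processing genes, *Insig2* carried the largest change of all 27 members. INSIG2 retains the SCAP and SREBP complex in the endoplasmic reticulum and, in mouse liver, is made largely from a liver-specific transcript that insulin lowers. Its values were 10.43, 10.76, 10.86, 11.06 and 11.54 in KO livers and 10.89, 11.13, 11.29, 11.47 and 11.66 in WT livers at 12 h, against 12.44, 12.64, 12.77, 12.85 and 12.86 in KO livers and 12.26, 12.399, 12.52, 12.61 and 12.80 in WT livers at 0 h. The highest of the 10 livers at 12 h was 11.66 and the lowest of the 10 at 0 h 12.26. The change was -1.78 (95% interval -2.12 to -1.44, adjusted p = 9.40e-08) in KO and -1.23 (95% interval -1.57 to -0.89, adjusted p = 1.05e-05) in WT livers, to 0.291 of the level at 0 h in KO and 0.426 in WT. Over both genotypes its size ranked 49 of 25689 probe sets. Its batch means were 12.45 to 12.77 in the 4 batches at 0 h, with 11.11 in batch 5. Which of the 3 promoter windows was in use cannot be read from a single probe set.

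*Insig1*, the second retention protein and itself a known target of SREBP, was called lower at 12 h in KO livers at -0.34 (adjusted p = 0.0393) and was at -0.20 (adjusted p = 0.199) in WT livers. Its KO call was lost without any 1 of 8 of the 10 KO mice, all but 144 and 166 (-0.35 to -0.29, adjusted p up to 0.101), with the batch as a random block (adjusted p = 0.0506), after quantile normalization (-0.27, adjusted p = 0.106) and after centring (-0.28, adjusted p = 0.0911). Over both genotypes its change was -0.27 (adjusted p = 0.0111), and centring of each array on its median ended that call (-0.20, adjusted p = 0.0594).

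*Mbtps1*, the site-1 protease that makes the first cut in SREBP2, was higher at 12 h. Its values were 10.24, 10.31, 10.33, 10.34 and 10.38 in KO livers and 10.33, 10.34, 10.42, 10.46 and 10.52 in WT livers at 12 h, against 9.82, 9.83, 9.90, 9.96 and 10.07 in KO livers and 9.82, 9.87, 9.88, 9.91 and 10.11 in WT livers at 0 h. The lowest of the 10 livers at 12 h was 10.24 and the highest of the 10 at 0 h 10.11. The change was 0.40 (95% interval 0.26 to 0.55, adjusted p = 1.73e-04) in KO and 0.50 (95% interval 0.35 to 0.64, adjusted p = 1.66e-05) in WT livers, and it was the only change of the regulators and uptake genes called higher in both genotypes. Batch means of *Mbtps1* were 9.84 to 10.09 at 0 h, with 10.37 in batch 5.

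*Srebf2*, which encodes SREBP2 itself, had values of 9.47, 9.47, 9.48, 9.60 and 9.65 in KO livers and 9.57, 9.72, 9.73, 9.81 and 9.90 in WT livers at 12 h, against 9.33, 9.52, 9.54, 9.57 and 9.70 in KO livers and 9.33, 9.43, 9.49, 9.54 and 9.67 in WT livers at 0 h. In KO livers the ranges overlapped, and in WT livers 4 of 5 at 12 h lay above all 5 at 0 h. The change was 0.00 (95% interval -0.17 to 0.17, adjusted p = 0.998) in KO livers and was called in WT livers at 0.25 (95% interval 0.09 to 0.42, adjusted p = 0.0224). The difference between them was -0.25 (-0.49 to -0.02, unadjusted p = 0.0372, adjusted p = 0.715). *Scap*, the escort protein of SREBP2, was at 0.10 (adjusted p = 0.4) in KO livers and was called higher in WT livers at 0.25 (adjusted p = 0.0238), with no overlap between the times there. After quantile normalization neither the WT call of *Srebf2* nor that of *Scap* held (adjusted p = 0.133 for *Srebf2* and 0.0893 for *Scap*). The WT call of *Srebf2* was also lost without mouse 80, 111 or 146 (0.21 to 0.24, adjusted p up to 0.0668), and that of *Scap* without mouse 78, 146 or 170 (0.20 to 0.23, adjusted p up to 0.0742). With the fit restricted to the livers compared, the WT call of *Srebf2* was lost (adjusted p = 0.0505). Without WT mice 80 and 170 together, that of *Scap* was lost (0.23, adjusted p = 0.0664). Over both genotypes *Scap* was at 0.17 (adjusted p = 0.0171), a call that quantile normalization ended (0.14, adjusted p = 0.0685), and *Srebf2* at 0.13 (adjusted p = 0.0815), which was called after centring (0.20, adjusted p = 0.0083) and without KO mouse 144 or WT mouse 78 or 170 (0.15, adjusted p up to 0.0465).

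Among the 3 uptake and transport genes *Mylip* had the largest change over both genotypes, 0.42 (adjusted p = 9.27e-06). *Mylip*, also called Idol, is a ubiquitin ligase that sends the LDL receptor to degradation and is a known target of the liver X receptors. Its values were 8.59, 8.63, 8.68, 8.68 and 8.71 in KO livers and 8.88, 8.94, 9.11, 9.23 and 9.24 in WT livers at 12 h, against 8.16, 8.31, 8.46, 8.55 and 8.63 in KO livers and 8.44, 8.44, 8.46, 8.48 and 8.53 in WT livers at 0 h. In KO livers the value of mouse 143 at 0 h (8.63) lay inside the range at 12 h, whereas in WT livers the lowest value at 12 h (8.88) was above the highest at 0 h (8.53). The change was 0.23 (95% interval 0.06 to 0.41, adjusted p = 0.0564) in KO livers and 0.61 (95% interval 0.43 to 0.79, adjusted p = 1.85e-05) in WT livers, to 1.53 times the level at 0 h in WT. The KO change was called without the liver labelled KO mouse 1 (0.27, adjusted p = 0.0443), without KO mouse 143 (0.29, adjusted p = 0.0238), without WT mouse 167 (adjusted p = 0.0461), after centring (0.29, adjusted p = 0.0224), with bright probe sets alone, with a trended robust prior and with array weights.

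*Tmem97*, the sigma-2 receptor that binds the lysosomal cholesterol exporter NPC1, was at 0.19 (adjusted p = 0.0652) in KO livers and was called higher at 12 h at 0.23 (adjusted p = 0.0158) in WT livers. The KO change was called without the liver labelled KO mouse 1 (0.23, adjusted p = 0.0206) or KO mouse 109 (0.21, adjusted p = 0.0487), after centring (0.24, adjusted p = 0.0163) and with bright probe sets alone (adjusted p = 0.0285). Quantile normalization ended its WT call (0.15, adjusted p = 0.1). *Stard4*, a carrier of free sterol in the cytosol, had values of 10.99, 11.08, 11.09, 11.14 and 11.15 in KO livers and 10.67, 10.74, 10.76, 11.19 and 11.31 in WT livers at 12 h, against 10.87, 11.05, 11.07, 11.17 and 11.27 in KO livers and 10.68, 10.69, 10.71, 10.85 and 11.07 in WT livers at 0 h. All 4 groups overlapped, and among WT livers at 12 h mice 111 and 167 lay apart from the other 3. Its change was 0.07 (95% interval -0.10 to 0.23, adjusted p = 0.517) over both genotypes.

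**Figure D4:**
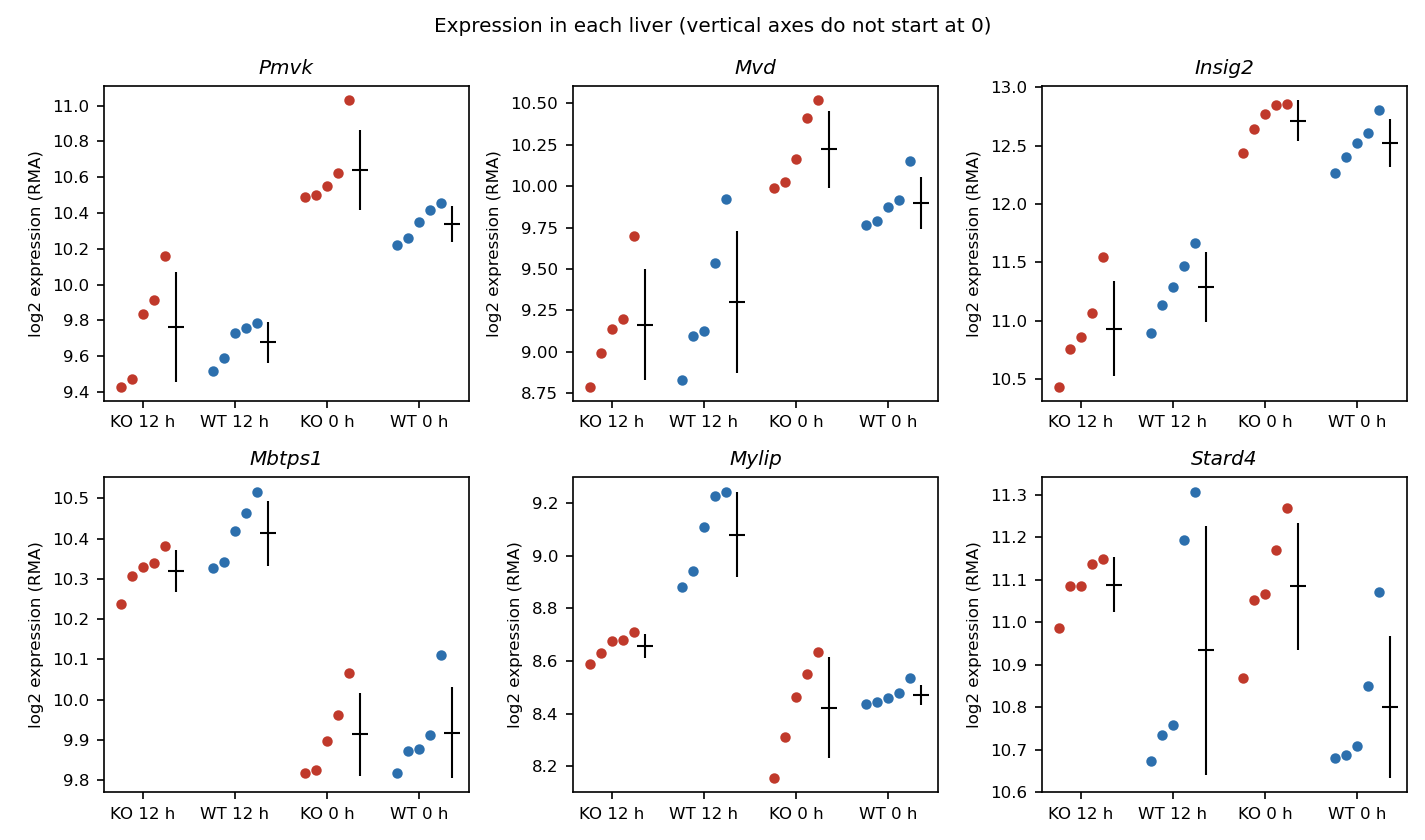
Log2 expression of 6 members in each liver. Points are mice, sorted by value within a group, red for KO and blue for WT, and bars show the group mean ± SD (n = 5). *Pmvk*, *Insig2* and *Mbtps1* separate all livers of 12 h from all of 0 h, and *Mylip* separates KO from WT livers at 12 h (8.59 to 8.71 in KO, 8.88 to 9.24 in WT).

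KO livers were also set against WT livers at each time. None of the 27 members was called by limma at 12 h, at 0 h or over both times, where 0.0234%, 0 and 0.0117% of all probe sets were called. At an unadjusted p under 0.05 there were 5 members at 12 h (12.5% of all probe sets), 3 at 0 h (4.47%) and 3 over both times (9.88%). Under the other settings these counts ran from 2 to 5 at 12 h, with 2 after quantile normalization, with only the arrays compared and with either KO mouse 55 or KO mouse 109 left out. The counts at 0 h ran from 1 without KO mouse 77 or the liver labelled KO mouse 1 to 9 with only the arrays compared, and over both times from 2 to 7, with 7 without WT mouse 167.

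The largest difference between the genotypes at 12 h was that of *Mylip*. Its values at 12 h were 8.59, 8.63, 8.68, 8.68 and 8.71 in KO livers, against 8.88, 8.94, 9.11, 9.23 and 9.24 in WT livers, with no overlap. Of the 27 members this was the only one without overlap at 12 h, against 2.42% of all probe sets. The difference was -0.42 (95% interval -0.60 to -0.25), a KO level of 0.746 of WT, with an unadjusted p of 5.87e-05 and an adjusted p of 0.0794, which missed the threshold. Over the other settings the adjusted p ran from 0.0393 to 0.195, and the call was made without WT mouse 167, without WT mouse 169, after centring and with bright probe sets alone. At 0 h the difference of *Mylip* was -0.05 (-0.22 to 0.13). The test of the change between the times gave -0.38 (-0.63 to -0.13, unadjusted p = 0.00499, adjusted p = 0.604).

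The other 4 members under an unadjusted p of 0.05 at 12 h were also lower in KO livers, with -0.36 (adjusted p = 0.375) for *Insig2*, -0.31 (adjusted p = 0.372) for *Rdh11*, -0.21 (adjusted p = 0.281) for *Srebf2* and -0.16 (adjusted p = 0.389) for *Lbr*. All of their ranges overlapped between the genotypes. Of the 17 enzymes, 12 were lower and 5 higher in KO livers at 12 h, with a median of -0.04 and a range of -0.18 to 0.11. Without WT mouse 167 the split of all 27 members at 12 h was 13 lower and 14 higher in KO livers, against 21 lower and 6 higher with it. It was 15 lower and 12 higher after quantile normalization, and 16 lower and 11 higher when either KO mouse 55 or KO mouse 109 was left out.

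At 0 h, 16 of 17 enzymes and 22 of 27 members were higher in KO than in WT livers, where 50.3% of all probe sets were lower. The median over the enzymes was 0.18, with a range of -0.01 to 0.37, and no member was called. *Lss* was highest, with values of 9.85, 10.35, 10.35, 10.53 and 10.65 in KO livers, against 9.61, 9.90, 10.01, 10.04 and 10.33 in WT livers, which overlapped, and a difference of 0.37 (95% interval 0.04 to 0.69, adjusted p = 0.987). *Pmvk* was the only member without overlap at 0 h, with 10.49, 10.50, 10.55, 10.62 and 11.03 in KO livers, against 10.22, 10.26, 10.35, 10.42 and 10.45 in WT livers, and a difference of 0.30 (95% interval 0.05 to 0.55, adjusted p = 0.987). No overlap at 0 h was seen for 0.728% of all probe sets. The liver labelled KO mouse 1 was its highest at 11.03, and the other 4 KO livers, at 10.49 to 10.62, also lay above the highest WT liver at 10.45. *Mvd* differed by 0.32 (-0.04 to 0.68), and *Stard4* by 0.28 (0.05 to 0.52), the smallest unadjusted p at 0 h (0.0193, adjusted p = 0.987). Within the 4 batches of 0 h the difference of *Pmvk* was 0.37, 0.68, 0.14 and 0.08, that of *Mvd* 0.46, 0.64, 0.14 and 0.01, and that of *Stard4* 0.48, 0.37, 0.39 and -0.20, from 1 or 2 mice a genotype.

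The difference between KO and WT livers was lower at 12 h than at 0 h for all 27, with a median of -0.17, against 49.6% of all probe sets and a median of 0.002 over them. Under the other settings this held for 25 to 27 of 27, with 25 without WT mouse 167. The 27 are not independent, as the enzymes varied together from mouse to mouse, and none of the differences was called. The largest of the 27 were those of *Rdh11* at -0.59 (-1.004 to -0.18, adjusted p = 0.613), *Insig2* at -0.55 (-1.03 to -0.07, adjusted p = 0.7) and *Mvd* at -0.46 (-0.97 to 0.05, adjusted p = 0.753). Among the sterol enzymes the largest was that of *Lss* at -0.39 (-0.85 to 0.07, adjusted p = 0.771), whose values at 12 h were 9.83, 9.88, 10.19, 10.34 and 10.62 in KO livers, against 9.96, 10.17, 10.19, 10.22 and 10.46 in WT livers, and which overlapped. The smallest unadjusted p of a sterol enzyme was that of *Msmo1*. Its values were 12.27, 12.63, 12.72, 12.84 and 12.86 in KO livers and 12.58, 12.70, 12.73, 13.02 and 13.18 in WT livers at 12 h, against 12.84, 12.94, 12.96, 12.96 and 13.22 in KO livers and 12.66, 12.76, 12.83, 12.87 and 12.89 in WT livers at 0 h. KO livers at 0 h lay highest on average, and all 4 groups overlapped. Its difference was -0.36 (-0.70 to -0.02, unadjusted p = 0.0374, adjusted p = 0.715).

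**Figure D5:**
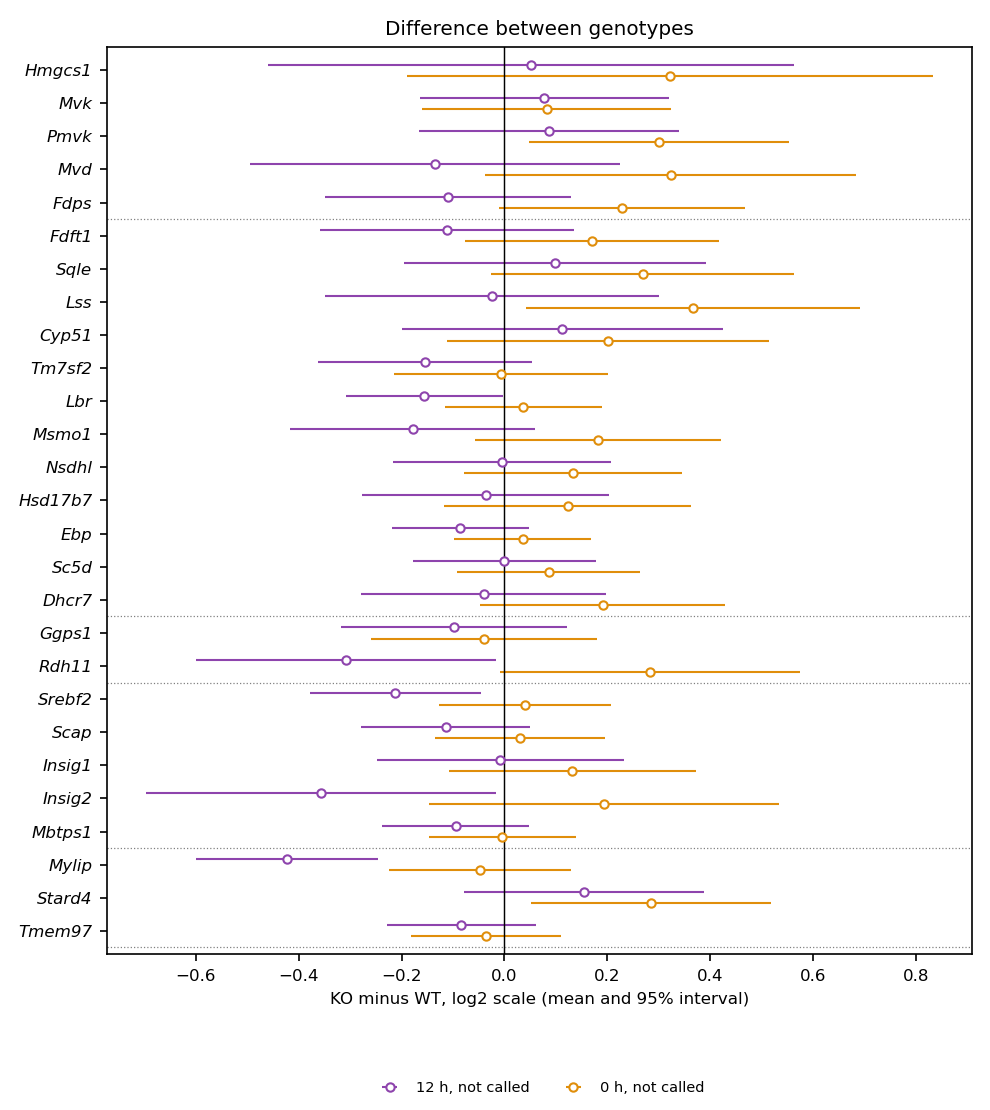
KO minus WT for each measured gene (horizontal axis, log2 scale) at 12 h (purple, upper of each pair) and at 0 h (orange, lower), as the limma estimate with its 95% interval, for 5 mice a group. All points are open because none had an adjusted p under 0.05. The purple point is left of the orange one for all 27 genes, and *Mylip* at 12 h is farthest left at -0.42.

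A list of 25 further genes of sterol handling was read beside the members, of which 17 were measured. At 12 h over both genotypes 8 were called higher and 4 lower, against 18.1% higher and 21.2% lower over all probe sets. The higher ones were led by *Abcg5* at 1.34 (adjusted p = 3.42e-11) and *Abcg8* at 1.08 (adjusted p = 1.75e-09), which form the exporter of sterols into bile, by *Npc1* at 0.83 (adjusted p = 2.88e-09), and by *Srebf1* at 0.74 (adjusted p = 1.30e-06), the sister factor of lipid synthesis. The others were *Scarb1*, *Abca1*, *Rnf145* and *Erlin2*. The lower ones were *Npc2*, *Npc1l1*, *Lipa* and *Nr1h3*, at -0.26 to -0.18. The signal of *Npc1l1* was weak, with a mean of 6.86 at 12 h and 7.04 at 0 h, below the lowest array median of 7.07. None of the 17 was called between KO and WT livers.

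Markers of other liver cells were read at 12 h against 0 h over both genotypes, where 21.2% of all probe sets were called lower and 18.1% higher. Of 8 Kupffer cell markers, 6 were called lower and 1 higher. Their mean level was 9.04 to 9.40 in KO and 8.92 to 9.30 in WT livers at 12 h, against 9.19 to 9.65 in KO and 9.34 to 9.69 in WT livers at 0 h. *Vsig4* (-0.59) and *Clec4f* (-0.57) were the lowest of the 8, *Timd4*, another marker of resident Kupffer cells, was at -0.09 and not called, and *Csf1r* was the one called higher (0.17). Of the other lists, 1 of 7 endothelial markers was called higher and 1 lower, 2 of 7 stellate cell markers higher and 2 lower, 0 of 4 cholangiocyte markers higher and 1 lower, 1 of 4 neutrophil markers higher and 0 lower, and 0 of 4 lymphocyte markers in either direction. Neutrophil markers averaged 5.56 to 5.96 and lymphocyte markers 5.94 to 6.39 in a liver, below the lowest array median of 7.07. The few calls in these 2 lists therefore do not show that such cells were stable. Of the 8 hepatocyte markers, 2 were called higher and 1 lower. The part of these markers in the changes of the sterol genes was not tested, and in whole liver, fewer cells of a type and less RNA per cell cannot be told apart.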

How the data were processed

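Total RNA of 20 mouse livers had been hybridized, 1 mouse to a GeneChip Mouse Gene 1.0 ST array. The deposited values are log2 expression values per probe set that the authors made with RMA (background correction, normalization between arrays and summary of probes), per the labels' processing notes. The labels name no RMA version, package or annotation. The table has 35557 probe sets, of which 9868 held no value on any array, so that 25689 were analysed. Platform annotation named 1 gene for 20777 of these, several for 232 and none for 4680. Where a gene had several probe sets with values, the brightest stood for it, and each member had 1. Precision was limited by the number of arrays, 5 a group.

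Groups (genotype and hour) were taken from the sample labels. All 4 group means were fitted in 1 linear model (lmFit and eBayes of limma 3.58.1, run in R 4.3.3), 7 contrasts were read from it, and p-values were two-sided and adjusted by Benjamini-Hochberg over all 25689 probe sets, with a threshold of 0.05. The labels give each array a mouse of its own, so the mouse is the unit of the p-values. The spread they rest on also holds differences between arrays and, at 0 h, between batches 1 to 4. It holds no estimate of a shift between batch 5 and the other batches. Comparisons of genotype share the fit with those of time, and the averaged contrasts share mice with the single ones. The code was tested on simulated data. The members, the further lists and the mice left out were chosen with earlier results of these data known. Members with the largest absolute change per role group and comparison are given by mouse, and so are those whose groups did not overlap and are discussed at length. As alternatives, the batch label entered as a fixed effect (genotype) or a random block (time), the fit was restricted to the livers compared or to the probe sets brighter than the median, and the values were quantile normalized or centred on each array's median. Others were a trended and robust prior, array weights, and each mouse left out. The random block, with a correlation within batches of 0.0286, cannot separate time from batch, because all livers at 12 h and none at 0 h carry batch label 5. Leaving out WT mice 80 and 170 together was chosen after the data had been seen. Promoter windows came from RefSeq (GRCm38.p6) and were searched for exact matches on both strands with Python 3.11.15. Correlations used deviations from group means over all mice of a group, also where a mouse was left out of the correlation.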

Additional observations from a re-analysis of the deposited data

Results flagged for a closer look

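In 2 of 116 groups of 5 values, 1 mouse lay farther from the other 4 than Dixon's critical value of 0.71 allows, where chance gives about 1 in 20, or 5.8. *Mvk* was at 9.762 in WT mouse 167 at 12 h, and at 9.01 to 9.13 in the other 4 WT livers at 12 h. *Pmvk* was at 11.0292 in the liver labelled KO mouse 1 at 0 h, and at 10.49 to 10.62 in the other 4 KO livers at 0 h.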

How the results depend on the processing

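The log2 change under other settings was followed for the genes and comparisons the report gives a value for, not for every member in every comparison. Of 2512 such values, 2373 kept their direction and their side of the threshold, 82 lost a call, 40 gained one and 17 changed sign. The 2512 include values of comparisons that were not called in the main fit, which had no call to lose. At 12 h, 1 member (*Mylip*) was called lower in KO than in WT livers, in place of 0, with bright probe sets alone and after centring, and 0 to 1 with a mouse left out. For 12 h against 0 h in KO livers, 3 members were called higher with bright probe sets alone and 3 after centring, 2 with a trended robust prior and 2 with array weights, in place of 1. All of these were regulators or uptake genes. In WT livers the members called higher were 3 after quantile normalization and 4 without mice 80 and 170, in place of 7, and the regulators and uptake genes among them 2 after quantile normalization, in place of 5. The median change of regulators and uptake genes was 0.11 in KO livers after centring (0.05 as deposited), 0.33 after centring and 0.16 after quantile normalization in WT livers (0.24 as deposited), and 0.22 and 0.10 over both genotypes (0.15 as deposited). Centring moved the calls over all probe sets to 3676 higher and 1603 lower in KO livers, against 2722 and 2489 as deposited, and to 5294 and 1995 in WT livers, against 3462 and 3682, and the members to 3 higher and 9 lower in KO and 7 and 4 in WT livers. The cause of these shifts was not tested.

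With each mouse left out in turn, the members called at 12 h against 0 h were 1 to 3 higher and 8 to 14 lower in KO livers, 4 to 7 higher and 5 to 10 lower in WT livers, and 4 to 6 higher and 12 to 14 lower over both genotypes. The enzymes called lower were 6 to 11 in KO livers, 4 to 8 in WT livers and 9 to 11 over both genotypes. The regulators and uptake genes called higher were 1 to 3 in KO livers, 3 to 5 in WT livers and 4 to 5 over both genotypes. Their median change was 0.03 to 0.09 in KO livers, 0.21 to 0.25 in WT livers and 0.13 to 0.17 over both genotypes, and that of the enzymes -0.37 to -0.25 in KO livers, -0.25 to -0.13 in WT livers and -0.30 to -0.22 over both genotypes.

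Among the values followed, those that changed sign were not called. For 12 h against 0 h they were *Lss* over both genotypes (-0.0148 after quantile normalization, -0.0363 to 0.0697 with a mouse left out), *Lbr* in KO livers (-0.0365 after quantile normalization, -0.0111 to 0.0508 with a mouse left out) and *Srebf2* in KO livers (-0.00153 with the batch as a random block, -0.0547 after quantile normalization, -0.0503 to 0.0426 with a mouse left out). For KO against WT they were *Mylip* at 0 h (-0.0997 to 0.0198), *Pmvk* at 12 h (-0.013 to 0.17), *Mvd* at 12 h (-0.268 to 0.0194) and *Cyp51* at 12 h (-0.0142 to 0.237), each with a mouse left out. Over all 27 members more signs changed between KO and WT, with 13 to 22 members lower in KO livers at 12 h (21 as deposited) and 2 to 6 at 0 h (5 as deposited) over the settings. Using every single-gene probe set gave no other value, since each member had 1. No paired analysis was possible because no mouse number is shared between the groups. Arrays have no read depth, and their number limits which small differences can be called.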
